A study of Mus musculus with 24 samples.

Results

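The genes described here are the neighbours of Nr1i3 on mouse chromosome 1. They are the 122 genes of 24339 whose loci lie wholly between positions 168000000 and 175000000 of chromosome 1 in the deposited tables, a window of 7 Mb, with Nr1i3 itself and Tomm40l left out. The rule uses position and no expression value, although the window was proposed with earlier results of these data known. Of the 122 genes, 64 reached 1 FPKM (fragments per kilobase of transcript and per unit of library size, a level that can be compared between genes) in at least 3 of the 24 libraries and were tested. The other 58 did not. Of the tested genes, 20 lay at lower coordinates than Nr1i3 (called below it here) and 44 at higher ones (above it).

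Nr1i3 encodes CAR, the constitutive androstane receptor, a nuclear receptor of hepatocytes that switches on drug metabolism genes when drug-like compounds are present. Genes that lie close together can share promoters and enhancers, and the levels of neighbours are commonly examined after a locus has been replaced. The neighbourhood of Nr1i3 is a mixed one. It holds an apolipoprotein gene, a cluster of Fc receptor genes, a cluster of SLAM immune receptor genes, the interferon-inducible Ifi200 family, pentraxin genes and many housekeeping genes.

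Liver RNA of C57BL/6 mice was sequenced in 24 libraries that form 8 groups of 3 replicates. Wild type (WT) mice at postnatal day 5 or day 60 were given corn oil or TCPOBOP, an agonist of mouse CAR. Mice labelled hCAR-TG, which carry a human CAR knock-in, were given corn oil or CITCO, an agonist of human CAR, at the same ages. Genotype was therefore compared with the same vehicle in the corn oil groups, while in the ligand groups the ligand differed together with the genotype. The strain label was the same for both genotypes. The sources used here do not give doses, how the knock-in allele was made, or the cells, strain and backcrosses behind it. Whether replicates of a group were different mice is not stated in the labels. P-values therefore describe the spread among the sequenced samples and nothing wider, and this spread may be technical.

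As a check of the genotype labels, Nr1i3 stood at 68.6, 61.6 and 43.8 FPKM in WT and 18.7, 20.4 and 27.7 in hCAR-TG with corn oil at day 5. At day 60 its values were 53.4, 74.2 and 76.9 in WT and 6.94, 9.23 and 9.93 in hCAR-TG. With corn oil every hCAR-TG library was thus below every WT library of its age. With ligand, Nr1i3 was at 28.6 to 34 FPKM in hCAR-TG and 13.5 to 17.9 in WT at day 5, and at 8.55 to 11.9 and 19.3 to 23.9 at day 60. How much of the hCAR-TG value comes from reads of the human gene was not tested. Tomm40l, which encodes a mitochondrial import pore protein and overlaps the Nr1i3 locus by 1043 bp and the Apoa2 locus by 951 bp, was at 22.3 to 31.9 FPKM in WT and 7.78 to 9.07 in hCAR-TG with corn oil at day 60. For the tissue label, 8 hepatocyte markers had summed levels of 26820 to 76897 FPKM per library. Transcripts of pancreatic acinar cells stood apart in 3 day 5 libraries, 1 each of WT with corn oil (257 summed FPKM), WT with TCPOBOP (358) and hCAR-TG with CITCO (339). Intestinal transcripts also differed at day 5. Of 4 tested markers, 2 were higher in hCAR-TG with corn oil by the test given below (median log2 change 2.25). With ligand 0 were higher and 1 lower, and 3 fell with CITCO in hCAR-TG. Summed levels of 5 markers with corn oil overlapped, at 59.0 to 77.2 FPKM in WT and 68.5 to 89.9 in hCAR-TG. The part of these transcripts in the genotype differences was not tested.

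Sequence upstream of 3 genes that carry the main results, and the gap between a pair of oppositely directed genes, are shown here. The 250 bases before the RefSeq start (GRCm38.p6) belong to Pcp4l1, the tested gene nearest to Nr1i3 on the lower side, to Fcer1g, the nearest gene that was lower in hCAR-TG in all 4 genotype comparisons, and to Klhdc9, which was also lower in all 4. They were searched on both strands for AGGTCA (the nuclear receptor hexamer), CACGTG (the E-box), CCAAT (bound by NF-Y), GGGCGG (bound by Sp1) and TATAAA (the TATA box), and no match overlapped another. Capitals mark the only matches, 2 NF-Y motifs that lie on the opposite strand and so read ATTGG as printed. All are written 5′ to 3′ in the direction of the gene. Pcp4l1 is at chr1:171196269-171196518 (minus strand), Fcer1g at chr1:171234350-171234599 (minus strand) and Klhdc9 at chr1:171360799-171361048 (minus strand).
Pcp4l1: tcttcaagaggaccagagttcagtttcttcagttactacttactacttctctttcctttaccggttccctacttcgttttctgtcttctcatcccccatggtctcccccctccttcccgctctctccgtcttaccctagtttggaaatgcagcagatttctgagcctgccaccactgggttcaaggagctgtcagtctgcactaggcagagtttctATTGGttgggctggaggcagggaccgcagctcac
Fcer1g: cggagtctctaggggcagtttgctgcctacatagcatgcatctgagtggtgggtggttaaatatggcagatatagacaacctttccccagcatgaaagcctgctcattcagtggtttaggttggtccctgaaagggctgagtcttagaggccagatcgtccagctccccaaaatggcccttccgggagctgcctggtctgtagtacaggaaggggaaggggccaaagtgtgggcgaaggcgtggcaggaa
Klhdc9: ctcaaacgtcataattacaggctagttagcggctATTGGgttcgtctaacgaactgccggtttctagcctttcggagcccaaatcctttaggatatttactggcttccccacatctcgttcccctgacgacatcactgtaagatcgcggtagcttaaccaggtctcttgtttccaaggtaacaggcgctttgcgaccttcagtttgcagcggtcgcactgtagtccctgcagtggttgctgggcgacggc
The gap between the RefSeq starts of Nit1 and Pfdn2, at chr1:171345646-171345674 (plus strand) is 29 bases long (the loci in the deposited tables lie 53 bp apart) and separates a gene that was lower in all 4 comparisons (Nit1, which runs left) from one called in none (Pfdn2, which runs right).
Nit1 to Pfdn2: ggtaaccccccggccggatgtgacgcagt

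The Pcp4l1 match began 34 bases before the start and the Klhdc9 match 216 bases before it, and Fcer1g held none of the 5 motifs. Of all 32851 mouse promoters of the same length in the RefSeq table, 33.8% held the NF-Y motif. Of the 67 promoters of tested genes in the window, 26 (38.8%) held it. The 32851 include promoters of genes that were not tested. The nuclear receptor hexamer, the kind of motif CAR binds, was in 14.0% of all promoters and 10.4% of the 67. The E-box was in 6.02% and 4.48%, the Sp1 motif in 32.7% and 32.8%, and the TATA box in 12.4% and 8.96%. A promoter entry was found for 54 of the 64 tested genes.

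Genotype differences in the neighbourhood were counted first in the corn oil groups. At day 5, 26 of the 64 tested genes (40.6%) passed limma's test at an adjusted p under 0.05 (Benjamini-Hochberg over all 12282 tested genes), 8 higher and 18 lower in hCAR-TG, while 10.6% of all tested genes were called. At day 60, 19 of 64 (29.7%) were called, 6 higher and 13 lower, against 4.90% of all genes. Over all genes the calls leaned the other way: 8.29% were higher and 2.27% lower at day 5, and 3.05% higher and 1.85% lower at day 60. The median log2 change of the 64 genes was -0.13 at day 5 and -0.12 at day 60, against 0.03 and -0.00 over all tested genes. After rescaling by median of ratios the day 5 split in the window was 5 higher and 21 lower, and over all genes 739 higher and 399 lower. In the window the groups did not overlap in 33 genes (51.6%) at day 5 and 39 (60.9%) at day 60, against 21.7% and 24.9% of all genes. No test set the window's share against that of other genes.

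In the ligand groups far more genes were called over the whole transcriptome, and the window's share lay closer to it. At day 5, 36 of 64 genes (56.2%) were called, 8 higher and 28 lower, against 42.8% of all genes (20.0% higher and 22.8% lower). At day 60, 24 of 64 (37.5%) were called, 6 higher and 18 lower, against 43.7% of all genes (13.1% higher and 30.6% lower). Rescaling turned the day 60 split of the window into 12 higher and 16 lower, and that of all genes from 1610 higher and 3760 lower to 2558 higher and 2815 lower. Medians of the 64 genes were -0.18 at day 5 and -0.04 at day 60, beside 0.00 and -0.07 over all genes. The groups did not overlap in 45 genes (70.3%) and 31 genes (48.4%), against 59.6% and 60.1% of all genes.

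Both corn oil counts depended on the fit. The window's share was above that of all genes under 13 of 13 alternative fits at each age. With ligand it was above under 14 of 14 at day 5 and 3 of 13 at day 60. These fits share libraries, and those for day 5 with corn oil do not include the read file number described below. Fitted on its 6 libraries alone, the day 5 comparison called 9 of the 64 genes (1 higher and 8 lower) and 1.56% of all genes. Among those kept were Dusp12, Fcer1g, Klhdc9, Pcp4l1, Tstd1, Fcrla and Kcnj10. Without the library rich in pancreatic transcripts the day 5 count was 18 (3 higher and 15 lower). The read file names close with a number whose meaning the labels do not give, called the suffix here. All 3 WT libraries with corn oil at day 60 have suffix 1 and all 3 hCAR-TG ones suffix 2. Suffixes 1 and 2 occur together in the WT group with TCPOBOP at day 60 alone, where replicate 3 is the one library with suffix 2, so a correction between them rests on that library. With the suffix as a factor 6 of the 64 genes were called at day 60 (4 higher and 2 lower, against 0.887% of all genes). Tstd1, F11r, Pcp4l1, Cfap126 and Dusp12 were among both these 6 and the 19, with the same direction. Whether the other 14 calls follow the suffix cannot be told from a correction through 1 library. At day 5 with corn oil the suffix and the genotype cannot be told apart. There hCAR-TG replicate 3 has suffix 5 and the other two suffix 4, and the corrections with ligand at day 5 rest on that replicate. With ligand the suffix as a factor gave 45 of 64 at day 5 and 21 of 64 at day 60, against 48.7% and 24.4% of all genes.

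**Figure D1:**
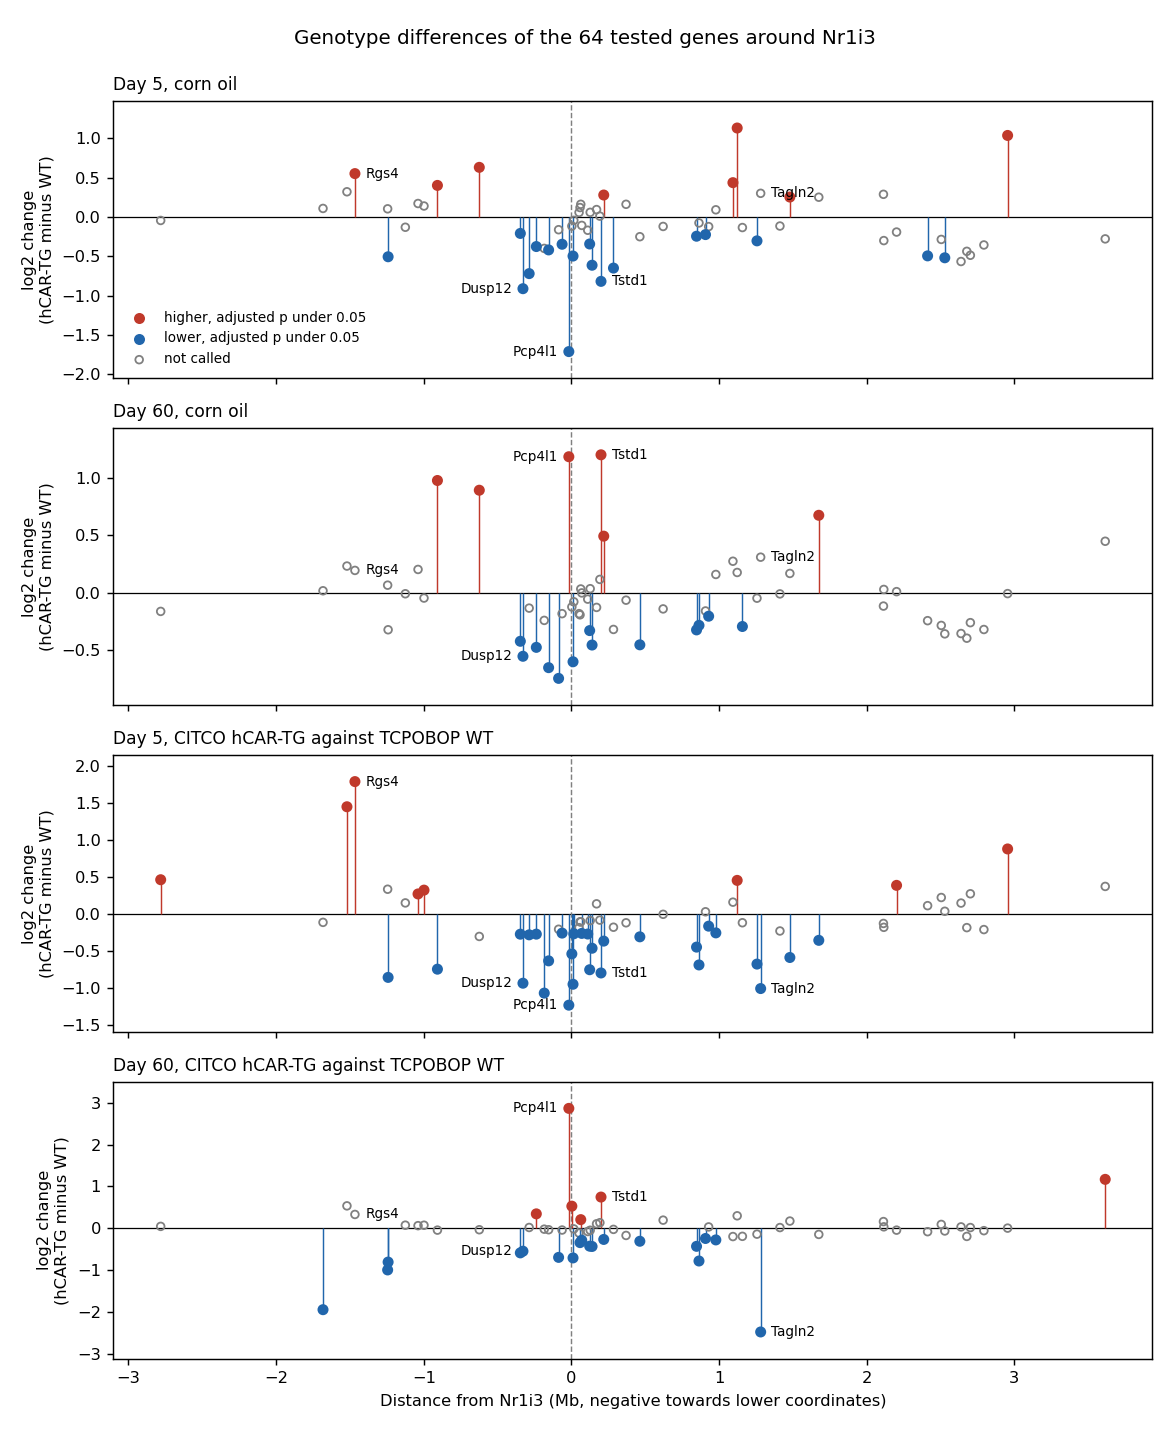
Log2 change (hCAR-TG minus WT, limma on log2(FPKM + 1)) of the 64 tested genes against distance from Nr1i3 in Mb, 1 panel for each genotype comparison; filled points with stems were called at adjusted p under 0.05 (red higher, blue lower), open circles were not, and the dashed line marks Nr1i3. With corn oil 26 genes were called at day 5 and 19 at day 60, and Pcp4l1 and Tstd1 lie below 0 at day 5 and above 0 at day 60.

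The size of the genotype difference followed the distance from Nr1i3 differently on the lower and the higher side. On the lower side with corn oil, the median absolute log2 change within 1 Mb was 0.40 at day 5 and 0.52 at day 60. Between 1 and 3.2 Mb it was 0.15 and 0.18. On the higher side it was 0.12 and 0.13 within 0.25 Mb, and 0.40 and 0.27 between 2 and 4 Mb. Within 1 Mb on the lower side, 9 of 12 tested genes were called at day 5 and 8 of 12 at day 60 with corn oil. Farther out on that side, between 1 and 3.2 Mb, the counts were 2 of 8 and 0 of 8. On the higher side, 5 of 15 genes within 0.25 Mb were called at each age, then 3 of 9 and 4 of 9 between 0.25 and 1 Mb, 4 of 8 and 2 of 8 between 1 and 2 Mb, and 3 of 12 and 0 of 12 between 2 and 4 Mb. Spearman's rho of the size of the log2 change with distance over the 64 genes was 0.18 at day 5 and -0.09 at day 60 with corn oil, and -0.02 and -0.17 with ligand. These are descriptions across genes that share their libraries.

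Of the 8 tested genes nearest on the higher side, 1 was called with corn oil. That was Fcer1g. Apoa2, B4galt3 (a galactosyltransferase), Ppox (an enzyme of haem synthesis), Usp21 (a deubiquitinating enzyme), Ufc1 (the conjugating enzyme of UFM1) and Dedd (a death effector domain protein) were among those called at neither age. Their log2 changes lay between -0.17 (Dedd) and 0.16 (Usp21) at day 5 and between -0.19 (Ppox) and 0.03 (Usp21) at day 60. On the lower side, 7 of the nearest 8 were called in at least 1 corn oil comparison: Pcp4l1, Sdhc, Cfap126, Fcgr3, Fcgr2b, Fcrla and Dusp12. The remaining one, Fcgr4, was at -0.40 ± 0.14 (± SE; limma adjusted p = 0.066) at day 5.

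A group of 6 genes was called lower in hCAR-TG in all 4 genotype comparisons, which share no library but share 1 estimate of the spread: Atf6, Dusp12, Fcer1g, Klhdc9, Ncstn and Nit1. That is 9.38% of the tested genes of the window, and 0.155% of all tested genes (19 genes) met the same condition. Of those 19 genes, 1 more lay elsewhere on chromosome 1 and 12 on other chromosomes. In the other direction, 0 of the 64 were called higher in all 4, against 0.122% of all genes. Fitted on the compared libraries alone, 3 genes met the condition (Dusp12, Fcer1g and Klhdc9). With the suffix as a factor, which could be fitted in 3 of the 4 comparisons, 1 gene (Dusp12) was called lower in each. Atf6, Fcer1g, Klhdc9, Ncstn and Nit1 were then called lower with ligand at both ages but not at day 60 with corn oil. There their log2 changes ran from -0.25 (Ncstn) to -0.56 (Fcer1g), with limma adjusted p from 0.123 to 0.262. That correction rests on 1 library. The 6 genes lie between 346 kb below and 847 kb above Nr1i3.

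Fcer1g (chr1:171229572-171234349, minus strand), 10.7 kb above Nr1i3, encodes the common gamma chain through which activating Fc receptors signal. With corn oil it was at 41.6, 42.1 and 43.6 FPKM in WT and 31.7, 28.8 and 29 in hCAR-TG at day 5, and at 13, 14.1 and 12.1 and 6.98, 8.84 and 9.02 at day 60. With ligand its values were 49.9, 60.6 and 50.9 and 29, 25.5 and 27.5 at day 5, and 14.1, 13.4 and 13.4 and 7.72, 9.02 and 7.26 at day 60. The genotypes did not overlap in any of the 4 comparisons, although the level itself fell with age in both. The log2 changes were -0.50 ± 0.09 and -0.60 ± 0.09 with corn oil and -0.95 ± 0.09 and -0.71 ± 0.09 with ligand (limma adjusted p = 0.000929, 0.000255, 7.07e-08 and 2.03e-06).

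Nit1 (chr1:171342237-171345645, minus strand), 123 kb above Nr1i3, encodes an amidase that repairs deaminated glutathione. With corn oil it was at 38, 36.2 and 41 FPKM in WT and 29.5, 27.9 and 32.9 in hCAR-TG at day 5, and at 45.8, 50.7 and 46.6 and 36.8, 39.3 and 37.1 at day 60. With ligand the values were 42.4, 47.3 and 44.8 against 27, 25.1 and 26.5 at day 5 and 50.8, 47.6 and 50.3 against 34.9, 38.1 and 37.1 at day 60. All hCAR-TG libraries were below all WT libraries of the same age and treatment. The log2 changes were -0.34 ± 0.07, -0.33 ± 0.07, -0.75 ± 0.07 and -0.42 ± 0.07 in that order (limma adjusted p = 0.0014, 0.00373, 2.00e-08 and 2.05e-05). Pfdn2, a prefoldin chaperone subunit that starts across the gap shown above, was at 21.4 ± 1.88 FPKM in WT and 22.3 ± 0.645 in hCAR-TG at day 5 with corn oil (mean ± SD, n = 3 each) and was called in none of the 4. Its log2 changes lay between -0.09 (day 5, ligand) and 0.06 (day 5, corn oil).

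Klhdc9 (chr1:171358449-171360798, minus strand), 139.6 kb above, encodes a kelch domain protein and was expressed at a low level. Its corn oil values were 1.67, 1.63 and 1.5 FPKM in WT and 0.68, 0.657 and 0.76 in hCAR-TG at day 5, and 2.09, 2.0 and 2.29 and 1.26, 1.29 and 1.28 at day 60. Ligand values were 1.55, 1.27 and 1.26 and 0.613, 0.908 and 0.625 at day 5, and 2.09, 2.29 and 2.12 and 1.46, 1.22 and 1.36 at day 60. The groups were again apart in each of the 4 comparisons. The ratio of the mean FPKM (hCAR-TG to WT) was 0.437 at day 5 and 0.60 at day 60 with corn oil. On the log2(FPKM + 1) scale, which understates the change of a gene this low, the differences were -0.61 ± 0.07 and -0.46 ± 0.07 (limma adjusted p = 3.03e-06 and 0.000237).

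Dusp12 (chr1:170874188-170885540, minus strand), a dual-specificity phosphatase gene 328 kb below Nr1i3, was at 12.6, 13.4 and 14.5 FPKM in WT and 5.81, 5.82 and 8.8 in hCAR-TG at day 5 with corn oil. At day 60 the values were 7.32, 6.94 and 6.33 and 4.36, 4.52 and 4.16. With ligand they were 10.5, 10.6 and 10.5 against 5.52, 4.93 and 4.64 at day 5, and 6.58, 6.63 and 6.93 against 3.83, 4.24 and 4.85 at day 60. No hCAR-TG library reached the WT range of its age and treatment, and hCAR-TG replicate 3 with corn oil at day 5 was the highest of its group. The log2 changes were -0.91 ± 0.10, -0.55 ± 0.10, -0.93 ± 0.10 and -0.54 ± 0.10 (limma adjusted p = 4.65e-06, 0.00243, 6.49e-07 and 0.000232).

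Atf6 (chr1:170704457-170867771, minus strand) and Ncstn (chr1:172066013-172082749, minus strand) showed smaller differences. Atf6 encodes a sensor of endoplasmic reticulum stress, and Ncstn encodes nicastrin, a subunit of gamma-secretase. Atf6 was at 7.19, 6.67 and 6.35 FPKM in WT and 5.4, 5.61 and 6.06 in hCAR-TG at day 5 with corn oil, and at 13.4, 12.4 and 12.2 and 8.99, 9.11 and 9.53 at day 60. Ncstn was at 27.8, 26.7 and 25.6 and 21.9, 20.7 and 24.7 at day 5, and at 14.9, 16 and 16.6 and 12.4, 12.8 and 12.1 at day 60. Neither gene's groups overlapped. The Atf6 log2 change was -0.21 ± 0.06 (limma adjusted p = 0.0393) at day 5 and -0.42 ± 0.06 (0.000255) at day 60. For Ncstn it was -0.25 ± 0.06 (limma adjusted p = 0.0105) and -0.32 ± 0.06 (0.0021). With ligand Atf6 was at -0.27 ± 0.06 and -0.59 ± 0.06, and Ncstn at -0.45 ± 0.06 and -0.43 ± 0.06. The day 5 corn oil call of Atf6 was lost without WT replicate 1 (limma adjusted p = 0.181) or 2 (0.0948) and without hCAR-TG replicate 1 (0.118) or 2 (0.0981), and that of Ncstn without WT replicate 1 (0.0608) or hCAR-TG replicate 2 (0.0699). Without either of these last 2 libraries, 4 genes were lower in all 4 comparisons.

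**Figure D2:**
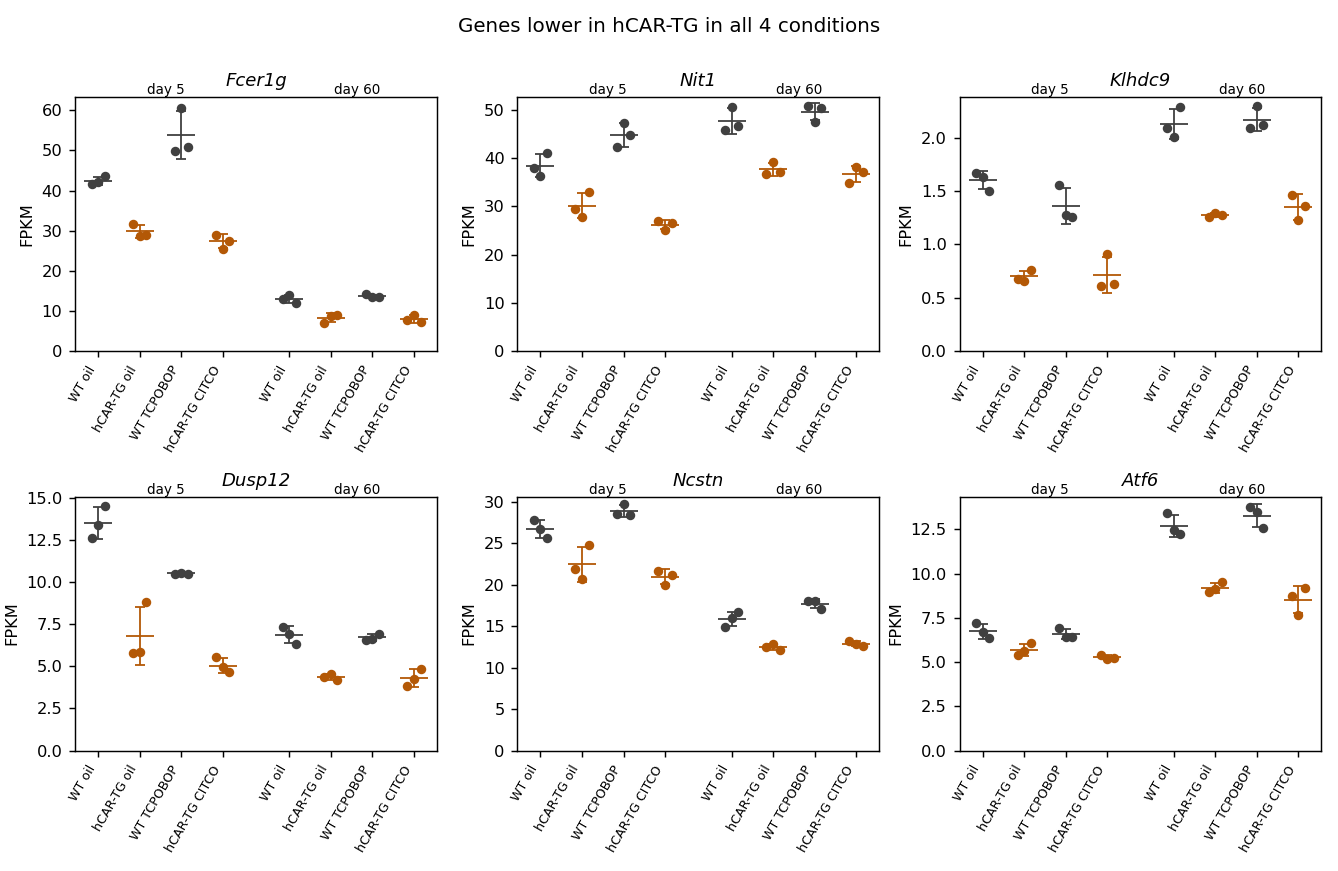
FPKM of the 6 genes called lower in hCAR-TG in all 4 genotype comparisons, by group; points are the 3 replicates, bars the mean and SD, grey WT and orange hCAR-TG. In each gene the orange points lie below the grey points of the same age and treatment, for example 28.8 to 31.7 against 41.6 to 43.6 FPKM for Fcer1g at day 5 with corn oil.

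A different pattern was found in 2 genes, Pcp4l1 and Tstd1, which were called lower in hCAR-TG at day 5 and higher at day 60 in the corn oil groups. Of all tested genes, 0.220% (27 genes) were called in opposite directions at the 2 ages. Pcp4l1 (chr1:171173264-171196268, minus strand), 17.7 kb below Nr1i3, encodes a small protein related to Purkinje cell protein 4. With corn oil at day 5 it was at 65.6, 57.7 and 34.7 FPKM in WT and 15.8, 11.8 and 17.4 in hCAR-TG, and WT replicate 3 stood well below the other two. At day 60 it was at 4.33, 4.52 and 4.62 in WT and 10.5, 12 and 12 in hCAR-TG. The log2 change between genotypes was -1.71 ± 0.17 at day 5 and 1.19 ± 0.17 at day 60 (limma adjusted p = 1.44e-06 and 0.000233), and the groups did not overlap at either age.

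The WT level of Pcp4l1 fell with age and the change in hCAR-TG did not pass the test. The change from day 5 to day 60 with corn oil was -3.24 ± 0.17 in WT (limma adjusted p = 1.82e-12) and -0.34 ± 0.17 in hCAR-TG (0.0854). The difference of the genotype differences was 2.90 ± 0.25 (limma adjusted p = 3.84e-07). With TCPOBOP the WT level was lower than with corn oil, at 28.5, 27.5 and 26.9 FPKM at day 5 and 0.948, 1.36 and 0.612 at day 60. With CITCO the hCAR-TG level was 11.8, 10.2 and 11.7 at day 5 and 13.8, 14.4 and 11.5 at day 60. Pcp4l1 thus fell with TCPOBOP in WT at both ages (-0.86 ± 0.17 and -1.49 ± 0.17, limma adjusted p = 0.000605 and 5.12e-07). With CITCO it was at -0.38 ± 0.17 and 0.18 ± 0.17 (limma adjusted p = 0.138 and 0.641).

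Tstd1 (chr1:171419033-171420352, plus strand), 200.2 kb above Nr1i3, encodes a protein with a thiosulfate sulfurtransferase domain. With corn oil it was at 147, 144 and 131 FPKM in WT and 82.1, 70.0 and 86.2 in hCAR-TG at day 5. At day 60 it was at 16.4, 16.3 and 17.5 in WT and 39.4, 41.4 and 38.6 in hCAR-TG. The groups were apart at both ages, in opposite order. The log2 changes were -0.82 ± 0.09 and 1.20 ± 0.09 (limma adjusted p = 1.92e-06 and 1.58e-08), and their difference was 2.02 ± 0.12 (limma adjusted p = 2.57e-09). In the ligand groups the order was the same: 121, 121 and 117 FPKM in WT and 73.7, 64.4 and 68 in hCAR-TG at day 5, and 27.2, 27.1 and 22.5 and 38.8, 43.4 and 48.7 at day 60. Tstd1 fell with age in both genotypes, by 3.0 ± 0.09 on the log2 scale in WT and by 0.97 ± 0.09 in hCAR-TG. Usf1, a transcription factor gene that ends just below the start of Tstd1 (chr1:171411313-171418759), was called in none of the 4 genotype comparisons (11.6 ± 1.77 FPKM in WT and 11.6 ± 1.03 in hCAR-TG at day 5 with corn oil, n = 3 each).

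**Figure D3:**
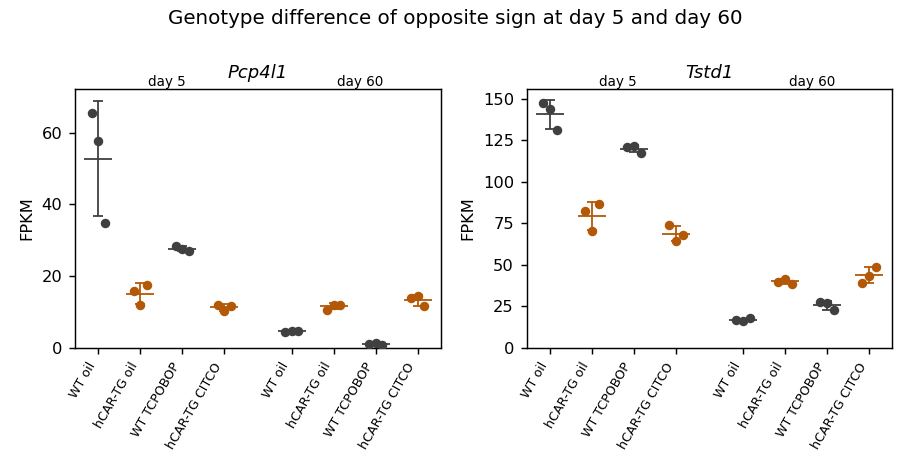
FPKM of Pcp4l1 and Tstd1 by group; points are the 3 replicates, bars the mean and SD, grey WT and orange hCAR-TG. At day 5 the WT points lie above the hCAR-TG points with either treatment, and at day 60 below them, for example 16.3 to 17.5 against 38.6 to 41.4 FPKM for Tstd1 with corn oil.

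The genes are described next by role. Each count is to be read against the share of all tested genes called in the same comparison, which was 10.6% at day 5 and 4.90% at day 60 with corn oil, and 42.8% and 43.7% with ligand, and each median log2 change against the medians of all genes, 0.03, -0.00, 0.00 and -0.07 in the same order. The lists are short, and several counts changed when 1 library was left out.

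Fc receptors bind the constant part of antibodies. The window held 8 genes of Fc receptors, their common signalling chain and Fc receptor-like proteins, and 5 of them were tested. Fcgr3, Fcgr4, Fcgr2b and Fcrla form a cluster between 155 and 286 kb below Nr1i3, and Fcer1g lies on the other side. With corn oil 4 were lower in hCAR-TG at day 5 and 3 at day 60, with 0 higher. With ligand 5 were lower at day 5, and at day 60 there was 1 lower (Fcer1g) and 1 higher (Fcgr2b), 2 of 5 where 43.7% of all genes were called. The median log2 changes of the 5 were -0.42 and -0.48 with corn oil and -0.63 and -0.02 with ligand. The day 5 ligand count was 3 without CITCO replicate 2. Fcgr3, an activating receptor, was at 23, 23.3 and 24.3 FPKM in WT and 18.2, 15 and 19.1 in hCAR-TG at day 5 and 8.03, 8.8 and 7.7 and 4.05, 5.06 and 5.46 at day 60 with corn oil. The groups did not overlap (log2 change -0.42 ± 0.10 and -0.65 ± 0.10, limma adjusted p = 0.00721 and 0.000233). The day 5 call was lost without hCAR-TG replicate 2 (limma adjusted p = 0.0523).

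Fcgr2b, the inhibitory receptor, was at 31.4, 31.8 and 27.7 FPKM in WT and 21.8, 22 and 25.6 in hCAR-TG at day 5, and at 30.5, 31.5 and 29 and 20.9, 21 and 22.7 at day 60. Its log2 changes with corn oil were -0.38 ± 0.08 and -0.48 ± 0.08 (limma adjusted p = 0.00267 and 0.000551). With ligand at day 60 it was higher in hCAR-TG, at 26, 23.6 and 25.9 against 19.9, 19.4 and 19.5 FPKM, and it fell with TCPOBOP in WT (-0.61 ± 0.08). Fcgr4, an activating receptor, was called in 1 of the 4 comparisons, with ligand at day 5 (-1.07 ± 0.14, limma adjusted p = 3.61e-06). Fcrla, an intracellular Fc receptor-like protein of B cells, was lower at day 5 with corn oil, at 0.939, 1.15 and 0.779 against 2.27, 2.01 and 2.37 FPKM (-0.72 ± 0.09, limma adjusted p = 1.46e-05).

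Fc receptors are made by macrophages and other cell types. In bulk liver RNA fewer cells of a type and less RNA per cell cannot be told apart. The markers given next are those of macrophages, neutrophils, lymphocytes and erythroid cells, and other cell types that make Fc receptors were not examined. Of 11 Kupffer cell and macrophage markers, 1 was higher and 1 lower in hCAR-TG at day 5 with corn oil, 0 and 1 at day 60, 0 and 6 with ligand at day 5, and 1 and 1 with ligand at day 60. The median log2 changes of the 11 were 0.07, -0.21, -0.29 and 0.09 in that order. None of the 11 was at 0 in any library. Their summed FPKM was 669 to 700.4 in WT and 665 to 1065 in hCAR-TG at day 5 with corn oil, and 286 to 324 and 214 to 291 at day 60. With ligand it was 798 to 935 and 731 to 852 at day 5, and 274 to 297 and 270.1 to 321 at day 60. Of 9 neutrophil markers 8 were higher in hCAR-TG at day 5 with corn oil and 2 at day 60, with 0 lower. With ligand 2 of them were higher at day 5 and 1 at day 60, again with 0 lower. Of 6 lymphocyte markers 3 were lower at day 5 with corn oil, 0 at day 60 and 4 with ligand at day 5, and their summed FPKM was 20.8 to 22.8 in WT and 16.7 to 17.8 in hCAR-TG at day 5 with corn oil. Of 8 erythroid markers 8 were higher in hCAR-TG at day 5 with corn oil and 0 at day 60, and their summed FPKM was 4626 to 6493 in WT and 10756 to 13639 in hCAR-TG at day 5 with corn oil. With ligand 7 of the 8 were higher at day 5 and 3 at day 60, with 0 lower. The part of cell numbers in the Fc receptor differences was not tested.

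The SLAM family, receptors that tune lymphocyte and macrophage contacts, had 4 tested genes of 9. With corn oil 1 was lower at each age, with ligand 2 at day 5 and 1 at day 60, and 0 were higher, while 42.8% and 43.7% of all genes were called with ligand. The median log2 changes were -0.19 and -0.10 with corn oil and -0.21 and -0.15 with ligand. Cd48, the ligand of several SLAM receptors, was at 2.05, 2.08 and 2.19 FPKM in WT and 1.22, 1.32 and 1.26 in hCAR-TG at day 60 with corn oil (-0.45 ± 0.09, limma adjusted p = 0.00418). Slamf9 was lower at day 5, at 0.553, 0.528 and 0.586 FPKM against 0.718, 1.2 and 0.873 (-0.30 ± 0.09, limma adjusted p = 0.0281). That call was lost without WT replicate 2 (-0.21, limma adjusted p = 0.19), which is the library rich in pancreatic transcripts, and without hCAR-TG replicate 1 (0.0569) or 2 (0.0781). Neither gene's groups overlapped there. Cd84 and Ly9 were called in none of the 4 comparisons.

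The Ifi200 family, DNA sensors and related interferon-inducible proteins more than 2 Mb above Nr1i3, had 8 tested genes of 12. With corn oil 2 were lower at day 5 and 0 at day 60, and with ligand 1 was higher at day 5 and 0 at day 60, where 42.8% and 43.7% of all genes were called. All 8 values were below 0 at day 5 with corn oil (median log2 change -0.46), but 6 of them did not pass the test. The called genes were Ifi204, at 6.66, 4.53 and 3.04 FPKM in hCAR-TG and 6.89, 7.05 and 6.91 in WT (-0.52 ± 0.15, limma adjusted p = 0.0258), and Pyhin1, at 1.18, 1.06 and 0.378 and 1.57, 1.34 and 1.88 (-0.49 ± 0.14, 0.0287). In both, hCAR-TG replicate 3 was the lowest library. Without it neither was called (Ifi204 -0.29, limma adjusted p = 0.102; Pyhin1 -0.29, 0.117), and the median of the 8 was -0.15. Without hCAR-TG replicate 1 all 8 were called lower, without WT replicate 1 none was, and without any of the other 3 libraries 1 was. Aim2, which senses DNA and starts inflammasome assembly, was higher in hCAR-TG with ligand at day 5 (0.39 ± 0.11, limma adjusted p = 0.00682). Ifi202b was listed at 0 in all 24 libraries. Members of this family are close relatives, and how reads shared among them were assigned is not given in the sources used here.

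Among the secreted proteins, Apoa2 (chr1:171221564-171226379, plus strand) starts 2.72 kb above the end of Nr1i3 and encodes an apolipoprotein of high density lipoprotein. It had the highest FPKM in the window. With corn oil it was at 10075, 8835 and 8631 FPKM in WT and 7644, 7248 and 10888 in hCAR-TG at day 5, and at 9710.2, 10505 and 10709 and 9236, 9818 and 9308 at day 60. The groups overlapped at day 5, where hCAR-TG replicate 3 was the highest of all 6, and at day 60 (-0.12 ± 0.10 and -0.12 ± 0.10, limma adjusted p = 0.55 and 0.636). Without that replicate Apoa2 was called lower at day 5 (-0.30, limma adjusted p = 0.00671). With ligand it was lower in hCAR-TG at day 5 (-0.54 ± 0.10) and higher at day 60 (0.53 ± 0.10), and in WT it rose with TCPOBOP at day 5 (0.52 ± 0.10) and fell at day 60 (-0.44 ± 0.10). With CITCO it was at 0.10 ± 0.10 (day 5, limma adjusted p = 0.523) and 0.21 ± 0.10 (day 60, 0.248) in hCAR-TG.

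The pentraxin genes Crp and Apcs encode C-reactive protein and serum amyloid P component. Apcs was higher in hCAR-TG at day 60 with corn oil, at 102, 113 and 118 FPKM against 60.5, 70.0 and 77.9 in WT, without overlap (0.68 ± 0.11, limma adjusted p = 0.000718). At day 5 it was at 0.25 ± 0.11 (limma adjusted p = 0.178). Crp was at 104, 106 and 123 FPKM in WT and 134, 123 and 141 in hCAR-TG at day 5, where the highest WT library and the lowest hCAR-TG library were level and the groups overlapped (0.25 ± 0.07, limma adjusted p = 0.0331). The Crp call was lost under 7 of 13 alternatives, among them median-of-ratios rescaling (limma adjusted p = 0.0962) and leaving out WT replicate 1 (0.154) or 2 (0.144) or hCAR-TG replicate 1 (0.0738) or 3 (0.0831). Both genes rose with TCPOBOP in WT at both ages (Apcs 0.94 ± 0.11 and 1.27 ± 0.11, Crp 1.01 ± 0.07 and 0.40 ± 0.07). With CITCO Crp rose at day 60 (0.41 ± 0.07). Apcs passed the test with CITCO at both ages (0.33 ± 0.11 and 0.45 ± 0.11, limma adjusted p = 0.0469 and 0.0133), but the day 5 call was lost under 10 of 14 alternatives and the day 60 call under 4 of 13, the latter without corn oil replicate 1 (limma adjusted p = 0.0739) or CITCO replicate 2 (0.0942) among them.

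The list of mitochondrial and metabolic enzymes had 10 tested genes, among them Pcp4l1, which is not an enzyme. With corn oil 0 were higher and 4 lower at day 5, and 2 higher and 2 lower at day 60. With ligand 1 was higher and 5 lower at day 5, and 2 higher and 3 lower at day 60, where 42.8% and 43.7% of all genes were called. Without Pcp4l1 the other 9 gave 0 higher and 3 lower, 1 and 2, 1 and 4, and 1 and 3 in that order, with median log2 changes of -0.04, -0.18, -0.18 and -0.11. Without either of 2 TCPOBOP libraries (replicates 2 and 3) or 2 CITCO libraries (replicates 2 and 3), the 4 lower with ligand at day 5 became 2. The 3 lower at day 5 with corn oil were Nit1, Tstd1 and Sdhc, a membrane subunit of succinate dehydrogenase 63.4 kb below Nr1i3. It was at 101, 101 and 117 FPKM in WT and 72.8, 77 and 103 in hCAR-TG (-0.35 ± 0.09, limma adjusted p = 0.0169), and hCAR-TG replicate 3 lay within the WT range. The Sdhc call was lost without WT replicate 3 (limma adjusted p = 0.0709) and without hCAR-TG replicate 1 (0.0893) or 2 (0.0813). Hsd17b7, an enzyme of cholesterol synthesis, was lower in hCAR-TG with ligand at day 60 (-0.99 ± 0.18). In WT it rose with TCPOBOP at that age (0.67 ± 0.18, limma adjusted p = 0.00424).

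Of 8 tested genes of ubiquitin and UFM1 conjugation, chaperoning and protein traffic, 2 were lower at day 5 and 3 at day 60 with corn oil and 0 higher, and with ligand 5 were lower at day 5, and 4 lower and 1 higher at day 60. Those are 5 of 8 at each age with ligand, against 42.8% and 43.7% of all genes, and the median log2 changes were -0.12 and -0.11 with corn oil and -0.21 and -0.16 with ligand. The gene higher with ligand at day 60 was Usp21 (0.21 ± 0.08, limma adjusted p = 0.0445), and that call was lost under 7 of 13 alternatives. At day 5 with corn oil the 2 lower were Ncstn and Pex19, and neither was called without WT replicate 1 or hCAR-TG replicate 2. Copa, the alpha subunit of the coatomer of Golgi vesicles, was at 47.2, 42.1 and 42.9 FPKM in WT and 38.3, 35.7 and 33.9 in hCAR-TG at day 60 with corn oil (-0.28 ± 0.06, limma adjusted p = 0.00324). Its groups did not overlap at day 5 either, but the difference did not pass the test (-0.08 ± 0.06, 0.441). Copa rose with TCPOBOP in WT (0.27 ± 0.06 and 0.24 ± 0.06) and fell with CITCO in hCAR-TG (-0.35 ± 0.06 and -0.25 ± 0.06). Pex19, which delivers proteins to the peroxisome membrane, was lower at day 5 with corn oil (-0.22 ± 0.06, limma adjusted p = 0.0114). The limma adjusted p of Pex19 was 0.0633 without WT replicate 1, 0.0633 and 0.0531 without hCAR-TG replicates 1 and 2, and 0.343 on the 6 libraries alone.

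Of 13 tested regulators of transcription and signalling, 2 were higher and 3 lower at day 5 with corn oil, and 1 higher and 3 lower at day 60. With ligand 4 were higher and 4 lower at day 5, and 0 higher and 4 lower at day 60, that is 8 and 4 of 13 against 42.8% and 43.7% of all genes. The median log2 changes, 0.01 and -0.01 with corn oil and -0.08 and 0.05 with ligand, were close to 0. Rgs4 and its neighbour Rgs5, regulators of G protein signalling, were higher in hCAR-TG with ligand at day 5. Rgs4 was at 6.09, 4.95 and 6.44 FPKM with CITCO against 0.80, 1.05 and 1.07 with TCPOBOP in WT (1.79 ± 0.14, limma adjusted p = 4.64e-09). Its corn oil values at day 5 were 3.02, 4.1 and 1.68 in hCAR-TG and 1.49, 1.63 and 1.66 in WT, where hCAR-TG replicate 3 was just above the WT range (0.55 ± 0.14, 0.0143). Without hCAR-TG replicate 2 that change was 0.34 (limma adjusted p = 0.0881), and the call was also lost without WT replicate 1 (0.0594) and without the libraries rich in pancreatic transcripts (0.0621). Rgs5 was at 1.45 ± 0.23 (limma adjusted p = 6.81e-05) in the ligand groups at day 5.

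In the window 3 genes were higher in hCAR-TG in both corn oil comparisons, F11r, Gm7694 and Nos1ap, against 0.464% of all genes (F11r and Gm7694 are named for their values). F11r, which encodes junctional adhesion molecule A, was at 20.3, 22.7 and 22.5 FPKM in WT and 31.4, 31.7 and 30.4 in hCAR-TG at day 60 (0.49 ± 0.07, limma adjusted p = 0.000264), but with ligand it was lower in hCAR-TG at both ages (-0.37 ± 0.07 and -0.26 ± 0.07). The day 60 ligand call of F11r was lost after median-of-ratios rescaling (limma adjusted p = 0.0768) and without TCPOBOP replicate 1 (0.0568). At day 5 with corn oil F11r was at 0.28 ± 0.07 (limma adjusted p = 0.0192), lost without WT replicate 2 (0.0922) or hCAR-TG replicate 1 (0.0688), and Gm7694 at 0.40 ± 0.12 (0.0328), lost under 9 of 13 alternatives. Nos1ap, an adaptor of neuronal nitric oxide synthase 624 kb below Nr1i3, was at 0.716, 0.797 and 1.23 FPKM in WT and 2.24, 2.02 and 1.61 in hCAR-TG at day 5. At day 60 it was at 0.403, 0.488 and 0.615 and 2.33, 1.59 and 1.51. The groups did not overlap (log2 change 0.63 ± 0.13 and 0.89 ± 0.13, limma adjusted p = 0.00276 and 0.00017). Each of the 3 genes also rose with TCPOBOP in WT at both ages: Nos1ap by 0.71 ± 0.13 and 0.81 ± 0.13, Gm7694 by 0.96 ± 0.12 and 1.0 ± 0.12, and F11r by 0.56 ± 0.07 and 0.92 ± 0.07. With CITCO in hCAR-TG none of the 3 was called (limma adjusted p between 0.233 and 0.974). The genotype and TCPOBOP comparisons share the WT corn oil libraries.

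Of 7 tested genes of adhesion, junctions, ion transport and the cytoskeleton, 4 were higher and 0 lower at day 5 with corn oil, and 1 higher and 0 lower at day 60. With ligand 2 were higher and 2 lower at day 5, and 0 higher and 2 lower at day 60, against 42.8% and 43.7% of all genes. The median log2 changes were 0.30 and 0.18 with corn oil and -0.13 and 0.01 with ligand. Without WT replicate 2 the 4 became 2. F11r, Igsf8 and Kcnj10 were among the 4. Igsf8, an immunoglobulin domain protein, was at 11.6, 10.8 and 15.6 FPKM in hCAR-TG and 9.99, 8.75 and 8.27 in WT at day 5 with corn oil (0.44 ± 0.13, limma adjusted p = 0.0328). The Igsf8 call was lost under 8 of 13 alternatives, among them median-of-ratios rescaling (limma adjusted p = 0.06), no filter (0.0667) and leaving out hCAR-TG replicate 3 (0.29, 0.126). Kcnj10, an inward rectifier potassium channel, was at 4.5, 4.05 and 2.33 FPKM in hCAR-TG and 1.05, 1.04 and 1.12 in WT at day 5 with corn oil, without overlap (1.13 ± 0.12, limma adjusted p = 2.53e-06). At day 60 it was at 0.512, 0.715 and 0.841 and 0.471, 0.556 and 0.445 (0.18 ± 0.12, 0.533), and the difference between the ages passed the test (-0.95 ± 0.17, limma adjusted p = 0.00176).

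Tagln2, an actin-binding protein of the transgelin family, gave the largest ligand response in the window. It was at 31.2, 37.1 and 41.7 FPKM with corn oil and 84.1, 89.6 and 82 with TCPOBOP in WT at day 5, and at 8.68, 8.56 and 7.84 and 77.9, 74.5 and 57.5 at day 60. In hCAR-TG it was at 44.1, 42.8 and 48.3 with corn oil and 43.2, 41.9 and 40.7 with CITCO at day 5, and at 13.1, 9.46 and 9.59 and 10.6, 12.6 and 11.9 at day 60. TCPOBOP libraries stood above all other libraries of their age. The log2 response was 1.20 ± 0.12 and 2.91 ± 0.12 in WT (limma adjusted p = 6.41e-08 and 2.80e-14), and -0.10 ± 0.12 and 0.13 ± 0.12 in hCAR-TG (0.577 and 0.611). In the ligand groups the genotype difference was -1.01 ± 0.12 at day 5 and -2.47 ± 0.12 at day 60, and with corn oil it did not pass the test at either age.

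Nuf2, a kinetochore protein of dividing cells, was at 3.71, 3.79 and 3.43 FPKM with TCPOBOP and 0.0709, 0.0761 and 0.0107 with corn oil in WT at day 60 (2.14 ± 0.12, limma adjusted p = 3.57e-12). With CITCO in hCAR-TG it was at 0.237, 0.32 and 0.0832 (0.18 ± 0.12, 0.417). At day 5 its level was 2.12 to 3.99 FPKM in WT with corn oil.

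**Figure D4:**
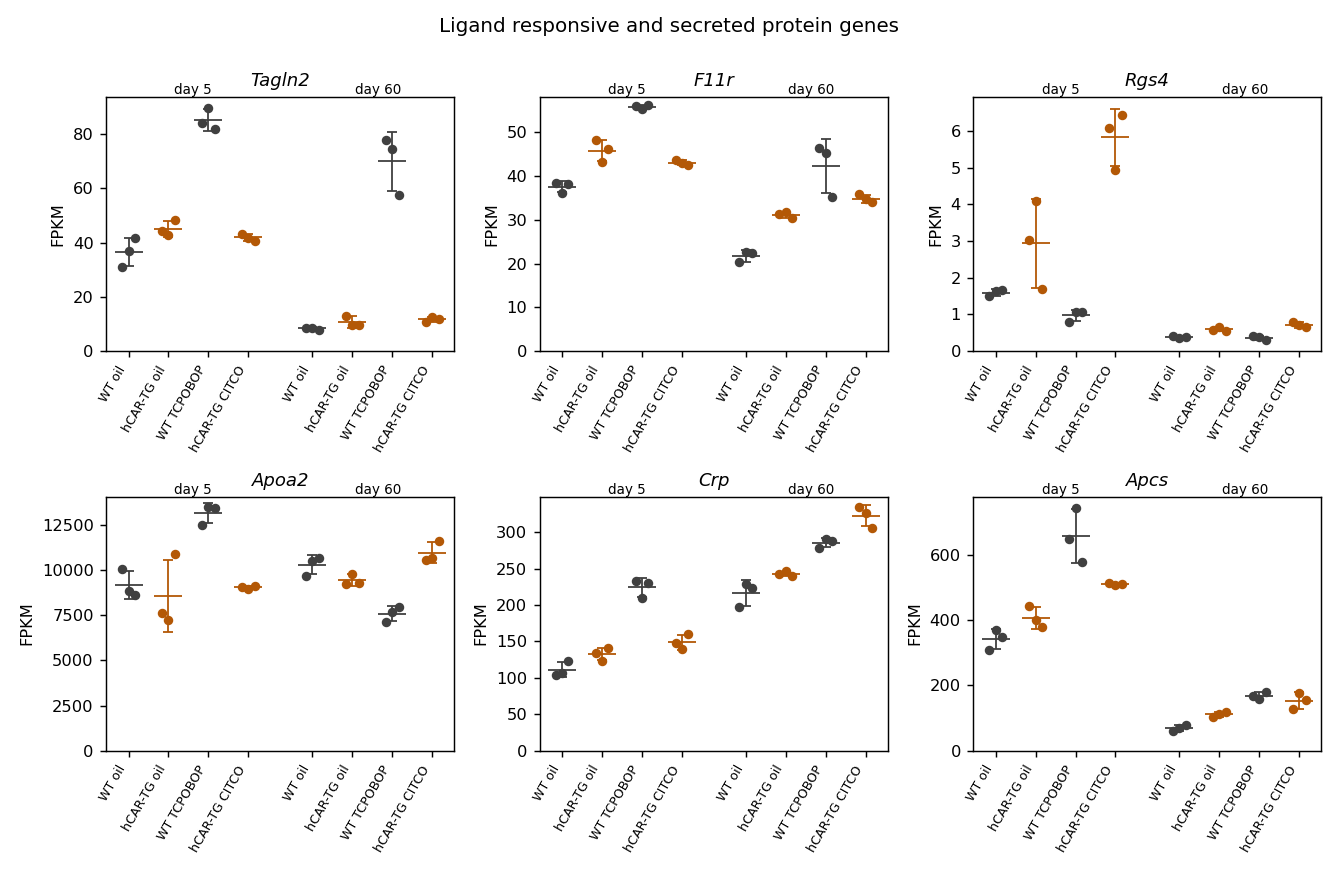
FPKM of Tagln2, F11r, Rgs4, Apoa2, Crp and Apcs by group; points are the 3 replicates, bars the mean and SD, grey WT and orange hCAR-TG. Tagln2 is at 57.5 to 77.9 FPKM with TCPOBOP in WT at day 60 and at 7.84 to 13.1 FPKM in the other groups of that age.

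Over the window as a whole, TCPOBOP in WT changed 23 of 64 genes at day 5 (13 higher and 10 lower), against 35.9% of all tested genes (24.6% higher and 11.3% lower), and 24 at day 60 (16 higher and 8 lower), against 47.2% (31.4% and 15.8%). CITCO in hCAR-TG changed 10 genes at day 5 (4 higher and 6 lower), against 17.1% (8.27% and 8.82%), and 3 at day 60 (2 higher and 1 lower), against 8.37% (4.40% and 3.97%). The 3 were Crp, Apcs and Copa. After rescaling by median of ratios the splits were 11 higher and 14 lower, 14 and 12, 3 and 8, and 2 and 1 in that order. The day 5 count with CITCO was 6 without CITCO replicate 1, 5 without replicate 3 and 1 when its 6 libraries were fitted alone. Without the libraries rich in pancreatic transcripts the day 5 counts were 15 for TCPOBOP and 6 for CITCO. In percent, the window's shares were 35.9, 37.5, 15.6 and 4.69. At day 5 their order against all genes depended on the fit. The window's share was above that of all genes under 4 of 13 alternatives for TCPOBOP at day 5, for example 42.2% against 32.5% when its 6 libraries were fitted alone. For CITCO at day 5 it was above under 4 of 14, among them 15 genes (23.4% against 19.1%) without hCAR-TG corn oil replicate 2 and 30 genes (46.9% against 39.0%) with the suffix as a factor, which rests on hCAR-TG corn oil replicate 3. At day 60 it was above under 0 of 13 alternatives for TCPOBOP and 1 of 13 for CITCO.

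More genes of the window were called between the ages than between the genotypes. From day 5 to day 60 with corn oil, 46 of 64 genes were called in WT (8 higher and 38 lower), against 70.2% of all genes (25.2% higher and 44.9% lower), and 42 in hCAR-TG (9 higher and 33 lower), against 71.6% (24.3% and 47.3%). The WT falls of Pcp4l1 and Tstd1 were followed in size by those of Apcs (-2.29 ± 0.11), Tagln2 (-2.00 ± 0.12) and Nuf2 (-1.89 ± 0.12). Crp rose with age in both genotypes (0.96 ± 0.07 in WT and 0.87 ± 0.07 in hCAR-TG), as did Atf6 (0.82 ± 0.06 and 0.61 ± 0.06). The genotype difference itself differed between the ages in 7 genes (4 higher and 3 lower at day 60 than at day 5), against 6.94% of all genes (2.10% and 4.84%).

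Of the 64 tested genes, 49 (76.6%) were called in at least 1 of the 4 genotype comparisons, as were 68.5% of all genes, and 15 in none, as were 31.5%. In both corn oil comparisons 13 were called (0.920% of all genes), of which 8 were lower in both (0.236%): the 6 above, Fcgr2b and Fcgr3. F11r, Fcgr2b, Pcp4l1 and Tstd1 were called in all 4 without keeping 1 direction (0.269% of all genes). The 15 include Usf1, Pfdn2, B4galt3 and Arhgap30, which lie within 0.25 Mb of Nr1i3 among called genes. Neighbours that start side by side behaved unequally in the case of Nit1 and Pfdn2, and Ncstn and Copa, whose loci overlap by 221 bp at their starts, were both lower at day 60. Dedd and Nit1 overlap by 265 bp at their ends, and 3110045C21Rik and Ddr2 by 90 bp. Although the library kit keeps strand, whether strand was used in counting is not given in the sources used here, so reads in these overlaps cannot be told apart.

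The 58 genes that were not tested were at low values in all groups. Of these, 18 were listed at 0 in every library, among them 3 microRNA genes. All 21 olfactory receptor genes of the window were untested, with at most 0.172 FPKM. Adamts4, a metalloprotease gene, was among the higher of the untested genes, at 0.662 to 0.869 FPKM in WT at day 5 with corn oil.

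The rest of chromosome 1 gives a frame for these counts. Among its 633 tested genes outside the window, 66 (10.4%) were called between genotypes at day 5 and 41 (6.48%) at day 60 with corn oil, and with ligand 270 (42.7%) and 297 (46.9%). In blocks of 10 Mb counted from Nr1i3, the block around Nr1i3, which reaches 5 Mb to either side, held 29 called of 74 tested genes at day 5 (39.2%) and 19 of 74 at day 60 (25.7%). The next block upward held 10 of 56 (17.9%) and 2 of 56 (3.57%), and the next block downward 5 of 54 (9.26%) and 2 of 54 (3.70%). Other blocks also exceeded the background: the block centred 40 Mb below Nr1i3 held 20 of 75 (26.7%) at day 5 and 15 of 75 (20.0%) at day 60, and the one centred 20 Mb below held 7 of 34 (20.6%) at day 60. Blocks far from Nr1i3 thus also held raised shares, and whether the window's share differs from theirs was not tested.

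**Figure D5:**
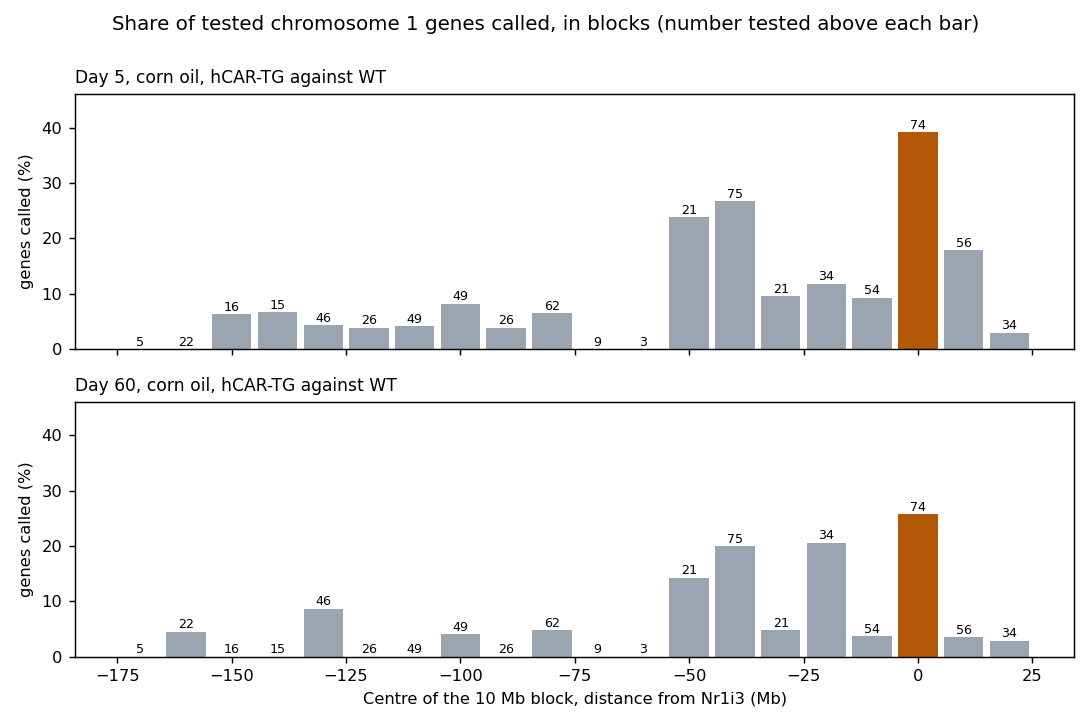
Share of tested chromosome 1 genes called between hCAR-TG and WT with corn oil, in blocks of 10 Mb by distance of the block's centre from Nr1i3, at day 5 (top) and day 60 (bottom); numbers above the bars are the genes tested, and the orange bar is the block around Nr1i3. That block has the highest bar at both ages (39.2% and 25.7%), and the blocks centred 40 and 50 Mb below it also stand above all blocks farther down.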

How the data were processed

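Liver RNA-seq of 24 libraries in 8 groups of 3 was analysed from gene tables of FPKM values with interval bounds, which the authors deposited 1 per library. They were made on mm10, per the submitters' processing notes; the aligner, quantifier and annotation are not given in the sources used here. Read totals were not used, so the depth is unknown; the deposited interval reached 9.1% to either side of the value in the median tested gene of the window (1.70% to 43.7%). Per library the FPKM summed to 451546 to 502499 over 24885 entries. Repeated symbols were summed and 5 genes with failed estimates were left out, which gave 24339 genes.

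FPKM were tested as log2(FPKM + 1), which understates the change of low genes, for the 12282 genes that reached 1 FPKM in 3 or more libraries. A single limma model (version 3.58.1, R 4.3.3; lmFit, and eBayes with trend and robust) held all 8 groups with 16 residual degrees of freedom and gave 11 comparisons. P-values were adjusted over all tested genes (Benjamini-Hochberg) and called under 0.05. Scripts in Python 3.11.15 (pandas 2.3.3, numpy 2.4.6) made the counts, and the fit was tested on simulated data. Alternatives were median-of-ratios rescaling, a pseudocount of 0.1, no filter or 5 FPKM, the replicate number as a block, the compared libraries alone, the suffix as a factor and each replicate left out. Leaving out the libraries rich in pancreatic transcripts, and the alternatives for single genes in the ligand and age comparisons, were added after seeing the data.

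The window's genes, role lists and marker lists were chosen with earlier results of these data known. Named genes were the 8 tested genes nearest to Nr1i3 on each side, those called in 1 direction in all 4 genotype comparisons, the 6 largest called changes without overlap in each genotype comparison, the 6 highest mean FPKM, up to 3 genes with the lowest adjusted p per role list, and the 4 largest called changes in each ligand and age comparison; predicted genes entered only by the first 2 parts. F11r, Gm7694, Pfdn2, Usf1, Arhgap30, Ly9, Adamts4, Ifi202b, 3110045C21Rik and Ddr2 fall outside this rule and were named after their values were seen. Some genes are counted in the totals and not reported here by name.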

Additional observations from a re-analysis of the deposited data

Results flagged for a closer look

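In 6 genes of the window reported here the genotype difference with corn oil at day 60 differed from that at day 5 by limma's test of that difference. The values, as the day 60 log2 difference minus the day 5 one, were 2.90 for Pcp4l1 (limma adjusted p = 3.84e-07) and 2.02 for Tstd1 (2.57e-09), both lower in hCAR-TG at day 5 and higher at day 60. Kcnj10, a potassium channel, was at -0.95 (limma adjusted p = 0.00176), higher in hCAR-TG at day 5. Fcrla, an Fc receptor-like gene, was at 0.59 (limma adjusted p = 0.00738), lower in hCAR-TG at day 5, while Cfap126, a gene of cilia, was at -0.59 (0.0196), lower at day 60. Gm7694 was at 0.58 (limma adjusted p = 0.0397), higher at both ages and more so at day 60. The Gm7694 difference passed the threshold narrowly and was lost under 12 of 19 alternatives, the Cfap126 difference without WT replicate 1 at day 5 (limma adjusted p = 0.0572), and the Fcrla difference with a pseudocount of 0.1.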

How the results depend on the processing

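Counts of called genes in the window moved by more than 1.5 times in these cases. With a filter at 5 FPKM, which left 39 genes tested, 16 were called between genotypes at day 5 with corn oil, 27 between ages in WT, 27 in hCAR-TG and 3 for the difference between ages. With the compared libraries fitted alone, the counts were 9 between genotypes at day 5 with corn oil, 1 for CITCO at day 5 and 5 at day 60, and 3 genes were lower in all 4 genotype comparisons. With the suffix as a factor they were 6 between genotypes at day 60 with corn oil, 30 for CITCO at day 5 and 1 at day 60; this factor could not be fitted for the genotype comparison with corn oil or the TCPOBOP comparison at day 5, the age comparison in hCAR-TG or the difference between ages. Changes of sign with it were those of Cd84 with ligand at day 5, from -0.00 to 0.44 (limma adjusted p = 0.027), F11r with ligand at day 60, from -0.26 to 0.021 (0.911), and Apoa2 and Sdhc with CITCO at day 5, from 0.10 to -0.26 (0.0251) and from 0.05 to -0.25 (0.0312). Corrections between suffixes 1 and 2, 2 and 3, and 4 and 5 each rest on 1 library that differs in suffix from the other two of its group, so these values do not show which calls depend on the suffix. Without the libraries rich in pancreatic transcripts, 15 genes were called for TCPOBOP and 6 for CITCO at day 5. The day 5 count for CITCO was also 6 without CITCO replicate 1, and it was 5 without CITCO replicate 3. The cause of these moves, beyond fewer genes or libraries in the fit, was not tested.

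With each replicate left out in turn, the counts ran from 18 to 28 between genotypes at day 5 and 17 to 19 at day 60 with corn oil, 29 to 35 and 22 to 25 with ligand, 17 to 22 and 20 to 23 for TCPOBOP, 5 to 15 and 2 to 4 for CITCO, 43 to 46 and 40 to 48 between ages in WT and hCAR-TG, 6 to 9 for the difference between ages, and 4 to 7 for genes lower in all 4 comparisons. With the replicate number as a block the counts were 26, 18, 36 and 23 between genotypes (day 5 and day 60 with corn oil, then with ligand), and no count moved by more than 1.5 times. Pairing by number was not seen in the correlations: in 0 of 10 comparisons did every pair correlate above 0.1 (range -0.185 to 0.266), and 8 of 30 pairs correlated best with their own number. With 3 libraries a group these values cannot tell whether the numbers mark pairs. Unknown depth and 3 libraries a group limit all of these values.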
